A study of Homo sapiens with 2 samples.

Results

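The mitochondrial ribosomal protein genes are the nuclear genes MRPL and MRPS, taken here as every gene symbol of the count table made of MRPL or MRPS, a number and, in some, a letter. The rule found 78 genes among 19220 symbols, 49 named for the large subunit and 29 for the small subunit. The rule uses gene symbols and no measured value. H9 cells kept for 6 h with doxorubicin at 0.05 µM were compared with H9 cells at 0 h of doxorubicin, called untreated here. H9 is an established human cutaneous T cell lymphoma line derived as a single clone, described in the labels as wild type, and both cultures grew in the same serum-supplemented medium. There was 1 poly(A)-selected library per condition, with 50174434 counts assigned to genes with doxorubicin and 33730703 counts untreated.

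Mitochondria keep ribosomes of their own, descended from those of bacteria, which translate the few inner-membrane proteins that mitochondrial DNA encodes. Their RNA is made in the organelle, but every protein of the mammalian mitochondrial ribosome is encoded in the nucleus, translated in the cytosol and imported. These proteins include families shared with bacteria and families found only in mitochondria. Doxorubicin, an anthracycline, stabilises topoisomerase II in its complex with cut DNA and is known for its toxicity to mitochondria in the heart.

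With 1 library per condition there was no replicate check and no test between conditions, so values describe these 2 libraries. Whether fewer cells or less RNA per cell set a level cannot be told apart in bulk RNA. Counts were divided by effective library sizes from TMM normalization and are given as CPM. Genes whose summed count over the pair of libraries reached 100 were treated as measured, which left 11244 genes. A gene was called lower or higher with doxorubicin when its ratio was at least 1.5-fold, which is 0.585 on the log2 scale, and its 95% counting interval excluded a ratio of 1. These intervals, given in brackets, cover counting error only. Of the listed T cell markers, CD3D had 7431 counts with doxorubicin and 7122 untreated, and CD4 had 1387 and 768 counts. The T cell markers CD2, CD7 and CD28 had at most 13 counts in either library. The B cell marker CD79A had 6628 counts with doxorubicin and 6007 untreated, while PAX5 was at 0 in both libraries. The epithelial marker EPCAM had 3236 counts with doxorubicin and 2591 untreated, and no myeloid marker was measured. Summed over the measured markers, T cell genes came to 620 CPM with doxorubicin and 668 CPM untreated, with CD3G called higher (3134 and 931 counts). The B cell sum was 129 CPM with doxorubicin and 182 CPM untreated, and the epithelial and stromal sum 69.2 and 83.9 CPM. The part of these markers in the results was not tested.

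The promoters of 6 members are shown with their matches to 3 short sequence cores. They were chosen as 4 members that were lower with doxorubicin and 2 of the members with the highest ratios. Each line runs 5′ to 3′ from 150 bases before to 30 bases after the gene start annotated by RefSeq on GRCh38.p14. Capitals mark exact matches, on either strand, to CCGGAAG (the core bound by ETS factors such as GABP), GCGCATGC (the core bound by NRF1) or AAGATGGC (the core bound by YY1). The windows lie at chr9:137551729-137551908 (+) for MRPL41, chr7:42932226-42932405 (+) for MRPL32, chr11:73787724-73787903 (+) for MRPL48, chr17:50373155-50373334 (-) for MRPL27, chr5:72320211-72320390 (-) for MRPS27 and chr17:38297018-38297197 (+) for MRPL45.
MRPL41: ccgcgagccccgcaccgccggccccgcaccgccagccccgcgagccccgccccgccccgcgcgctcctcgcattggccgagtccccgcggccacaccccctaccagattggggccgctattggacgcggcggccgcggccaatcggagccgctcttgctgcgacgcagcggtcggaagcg
MRPL32: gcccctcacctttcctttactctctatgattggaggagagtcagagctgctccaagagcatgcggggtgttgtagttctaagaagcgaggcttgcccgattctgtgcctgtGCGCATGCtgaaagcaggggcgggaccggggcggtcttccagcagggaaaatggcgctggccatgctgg
MRPL48: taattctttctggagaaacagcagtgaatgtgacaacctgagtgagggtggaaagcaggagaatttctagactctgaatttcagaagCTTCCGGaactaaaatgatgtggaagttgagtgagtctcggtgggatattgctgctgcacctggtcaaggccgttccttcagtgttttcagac
MRPL27: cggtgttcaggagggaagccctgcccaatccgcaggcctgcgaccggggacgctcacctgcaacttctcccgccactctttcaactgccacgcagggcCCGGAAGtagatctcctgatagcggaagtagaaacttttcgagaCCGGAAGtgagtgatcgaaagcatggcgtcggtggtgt
MRPS27: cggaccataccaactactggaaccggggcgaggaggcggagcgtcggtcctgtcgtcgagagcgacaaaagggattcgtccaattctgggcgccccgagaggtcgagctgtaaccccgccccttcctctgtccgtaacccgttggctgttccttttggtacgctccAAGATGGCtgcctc
MRPL45: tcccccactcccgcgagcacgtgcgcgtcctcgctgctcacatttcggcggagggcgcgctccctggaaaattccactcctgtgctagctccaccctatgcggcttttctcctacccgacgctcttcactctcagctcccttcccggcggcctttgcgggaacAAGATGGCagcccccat
MRPL41, the member with the lowest ratio, held none of the 3 cores in this window. MRPL27 held the ETS core at 2 places and MRPL48 held it once. MRPS27 and MRPL45 each held the YY1 core just after the gene start. MRPL32 held the NRF1 core once, and in the wider window searched below it also held the YY1 core.

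The members were searched over the whole RefSeq window, from 250 bases before to 50 bases after the start, on both strands, and 69 of the 78 had a window. The ETS core stood in 30 of 69 member promoters (43.5%), against 24.2% of 8869 measured genes and 12.2% of all 27305 genes with a window. For the YY1 core the share was 21 of 69 (30.4%), against 7.13% of measured genes and 3.52% of all. For the NRF1 core it was 6 of 69 (8.70%), against 6.77% and 3.68%. The search covered 3 other motifs. GGGCGG, bound by SP1, stood in 60.9% of member promoters, against 77.5% of measured genes and 48.3% of all. CCAAT stood in 33.3%, against 43.5% and 39.7%, and the E-box CACGTG in 13.0%, against 13.0% and 8.77%. Genes with several annotated starts were counted when any window held the core, and the ETS and YY1 cores can share the letters AAG. In 0 of the member windows did matches of the ETS, NRF1 and YY1 cores share bases. Members with the ETS core had a median log2 ratio of -0.51 (n = 30) and those without it one of -0.38 (n = 38). For the YY1 core the medians were -0.36 (n = 20) with it and -0.49 (n = 48) without it. For the NRF1 core the medians were -0.57 (n = 6) with it and -0.44 (n = 62) without it. The ETS core was in 8 of 20 promoters of members called lower and in 22 of 49 of the others. Those others include MRPS24, which held the YY1 core but had 0 counts in both libraries and was not measured. The YY1 core was in 5 of 20 and 16 of 49, and the NRF1 core in 3 of 20 and 3 of 49. A match is a string of letters and says nothing of binding in these cells.

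Most mitochondrial ribosomal protein genes had a lower level with doxorubicin, by a modest amount. Of the 77 measured members 22 were called lower (28.6%) and 0 were called higher, against 9.57% lower and 7.26% higher among all 11244 measured genes. Of the calls over all genes 43.1% were higher, and 56.0% were under scaling by total counts. The remaining 55 members differed by less than 1.5-fold. The log2 ratio lay below 0 in 71 of 77 members (92.2%), against 49.3% of all measured genes. Counting error did not span a ratio of 1 in most of them: the interval lay wholly below it in 64 members, against 36.9% of all genes, and wholly above it in 5, against 38.1%. The members' median log2 ratio was -0.46, with quartiles of -0.63 and -0.16, against 0.007 for all measured genes. This median stayed negative under the other 3 scalings, between -0.47 and -0.40. It was -0.042 after a length and GC adjustment, in which regression splines on transcript length, coding length and GC content were fitted to the ratios of all genes and subtracted. After it 0 members were called lower and 1 higher, against 3.46% and 4.26% of all genes. Summed over the 77 members, the level was 4896 CPM with doxorubicin and 6368 CPM untreated.

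Transcript length went with the ratio among the members as it did across the table. Spearman's rho between length and log2 ratio was 0.40 across the 77 members and 0.55 across 11188 measured genes, points that share the same 2 libraries. The members are short, with a median transcript of 1455 bases against 3250 for all measured genes. Among the shortest members, of 518 to 1040 bases, 12 of 19 were lower, with a median log2 ratio of -0.67. Other genes of that length were lower in 281 of 489 cases, with a median of -0.64. From 1040 to 1455 bases, 4 of 19 members and 203 of 691 other genes were lower, with medians of -0.51 and -0.41. Between 1455 and 1888 bases, 1 of 19 members and 165 of 998 other genes were lower, with medians of -0.31 and -0.26. Above that, 5 of 20 members and 368 of 8847 other genes were lower, with medians of -0.19 and 0.09, but those other genes are longer, with a median of 3829 bases against 2710 for the members. The share of members called lower was above that of other genes in the shortest and the longest windows and below it in the middle windows.

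**Figure D1:**
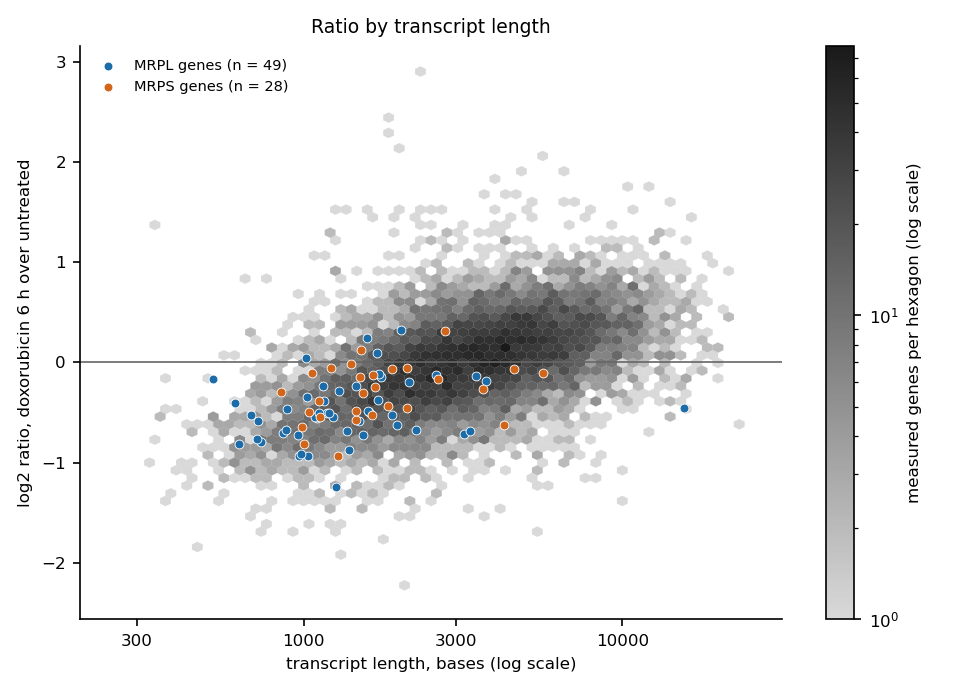
Log2 ratio of doxorubicin over untreated (vertical axis) against transcript length in bases (horizontal log axis) for each measured gene, grey hexagons counting all genes and coloured points marking the 49 MRPL and 28 MRPS genes. The members lie mostly at the short end, below 0 and within the cloud of other genes, with a median length of 1455 bases.

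The genes named for the large and small subunits had unlike shares of lower calls in these libraries. By the size rule 18 of 49 MRPL genes were lower (36.7%) and 4 of 28 measured MRPS genes were lower (14.3%), with 0 higher in either. These shares stand beside 9.57% lower and 7.26% higher among all measured genes. The median log2 ratio was -0.51 for MRPL and -0.28 for MRPS genes. MRPL transcripts were also shorter, with a median of 1262 bases against 1521. Among members with transcripts under 1455 bases, 13 of 28 MRPL and 3 of 10 MRPS genes were lower, with medians of -0.55 and -0.44. Among longer ones, 5 of 21 MRPL and 1 of 18 MRPS genes were lower, with medians of -0.37 and -0.21. After the length and GC adjustment the medians were -0.065 for MRPL and -0.027 for MRPS. Summed levels were 3210 CPM with doxorubicin and 4356 CPM untreated for MRPL, and 1685 and 2012 CPM for MRPS. No test of the difference between the subunits was possible with 1 library per condition.

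**Figure D2:**
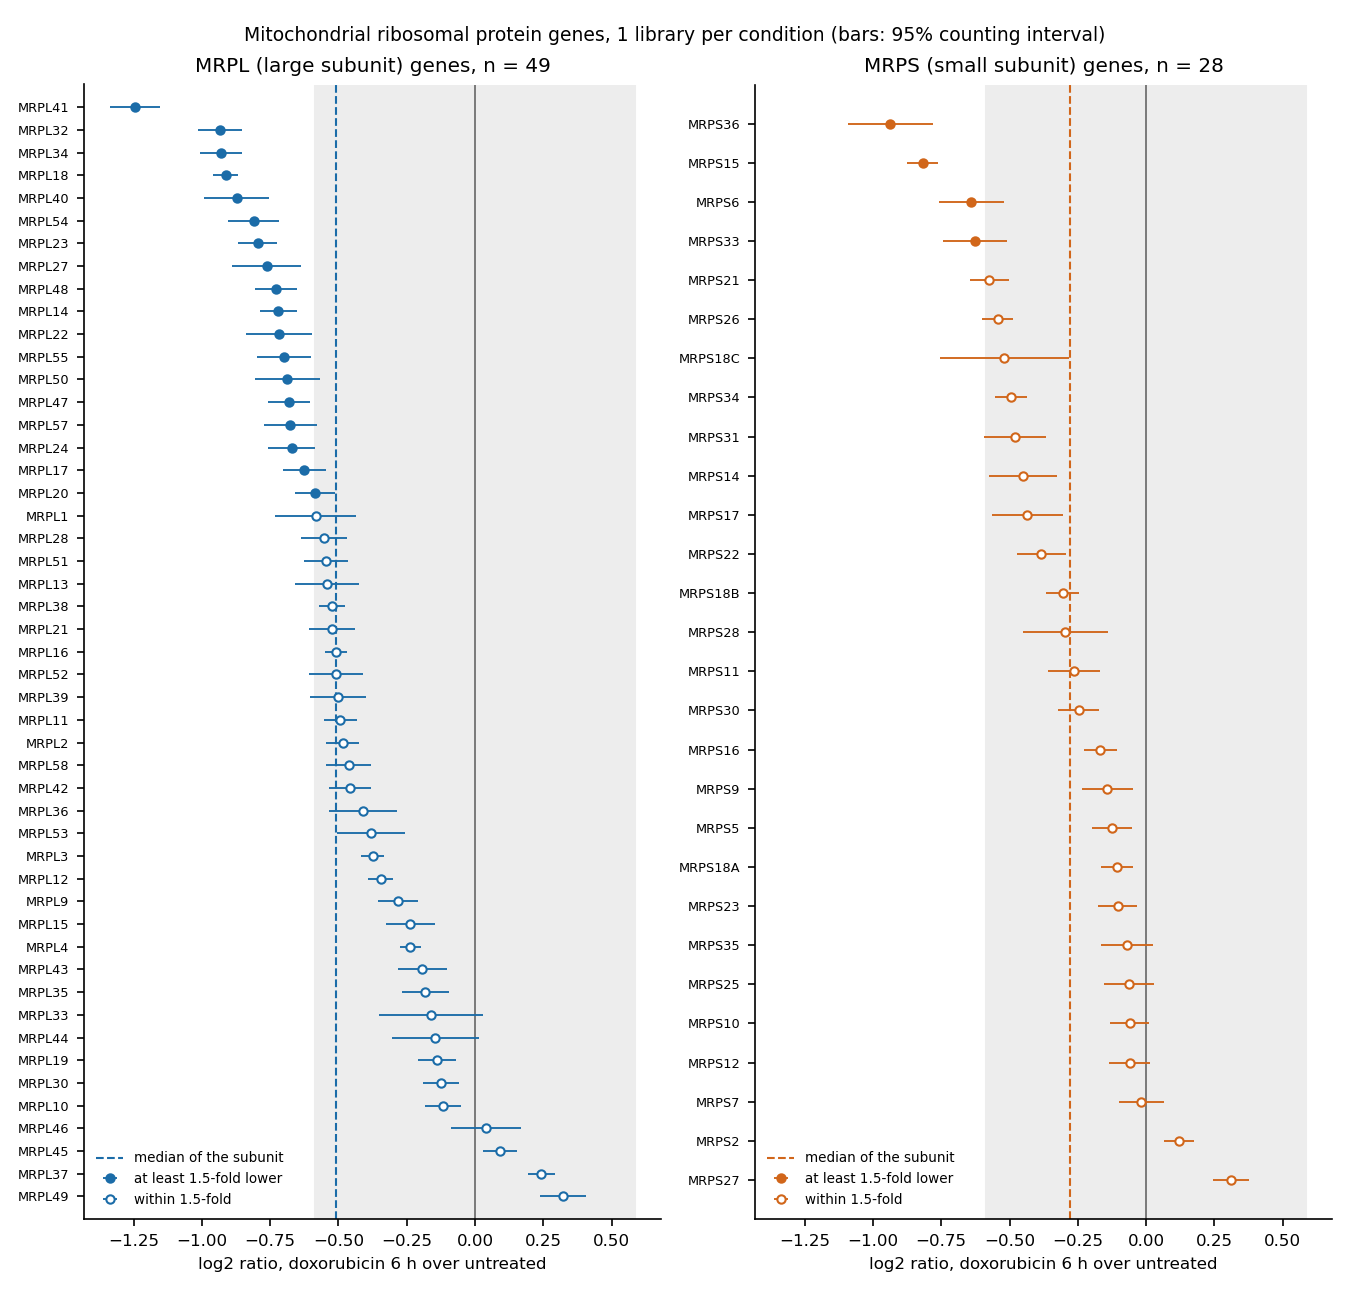
Log2 ratio of doxorubicin over untreated for each measured member, MRPL genes on the left and MRPS genes on the right, with 95% counting intervals as bars. Filled points passed the 1.5-fold rule, the grey band is within 1.5-fold, and dashed lines are the medians of -0.51 and -0.28.

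The 8 lowest members spanned both subunits. MRPL41, a mitochondria-specific protein of the large subunit also known to bind BCL2, stood at 31.6 CPM with doxorubicin and 74.9 CPM untreated. It was 2.37-fold lower (2.22 to 2.52), and it was the only member past a 2-fold limit. MRPL32, whose precursor is matured by the inner-membrane m-AAA protease, stood at 44.3 CPM with doxorubicin and 84.8 CPM untreated, which is 1.91-fold lower (1.81 to 2.02). MRPL41 has a transcript of 1262 bases and a coding sequence of 411 bases, and MRPL32 one of 1035 and 564 bases. MRPL34 stood at 48.0 CPM with doxorubicin and 91.6 CPM untreated, 1.91-fold lower (1.81 to 2.01), with 16.5% of its exons overlapped by ABHD8. MRPS36 had 12.03 CPM with doxorubicin and 23.04 CPM untreated, 1.91-fold lower (1.72 to 2.13). MRPS36 was named as a ribosomal protein and is now regarded as a subunit of the 2-oxoglutarate dehydrogenase complex. Of its sampled 50-base stretches 10.0% also occur in annotated pseudogenes, so its count is uncertain.

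MRPL18, a large-subunit protein of the central protuberance, had the highest per-length level of all members in untreated cells. Its level was 137 CPM with doxorubicin and 258 CPM untreated, 1.88-fold lower (1.82 to 1.94). Per kilobase of transcript, that was 140 CPM with doxorubicin, the fourth highest of the members, and 264 CPM untreated. MRPL40 stood at 20.4 CPM with doxorubicin and 37.4 CPM untreated, 1.83-fold lower (1.68 to 1.99). MRPS15, a small-subunit protein of a bacterial family, stood at 88.9 CPM with doxorubicin and 157 CPM untreated, 1.76-fold lower (1.69 to 1.84). MRPL54, found only in mitochondria, had 34.7 CPM with doxorubicin and 60.9 CPM untreated, 1.75-fold lower (1.64 to 1.87). After the length and GC adjustment MRPL40 had a log2 ratio of -0.52, MRPS15 one of -0.49, MRPL32 one of -0.45, MRPL18 one of -0.44, MRPL34 one of -0.34, MRPL41 one of -0.30, MRPS36 one of -0.13 and MRPL54 one of -0.10, all short of the size limit.

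The genes with the highest ratios differed by less than 1.5-fold, so none was called. MRPL49, a mitochondria-specific protein of the large subunit, stood at 66.3 CPM with doxorubicin and 53.1 CPM untreated, a log2 ratio of 0.32 (0.24 to 0.41). FAU, which encodes a fusion of a ubiquitin-like protein with a cytosolic ribosomal protein, overlaps 11.3% of its exons. MRPS27, a pentatricopeptide repeat protein of the small subunit, stood at 108 CPM with doxorubicin and 87.5 CPM untreated, a log2 ratio of 0.31 (0.24 to 0.38). MRPL37 stood at 187 CPM with doxorubicin and 158 CPM untreated, with a log2 ratio of 0.24 (0.19 to 0.29). MRPS2 (0.12), MRPL45 (0.09) and MRPL46 (0.04) complete the 6 members whose log2 ratio lay above 0. The interval of MRPL46 spanned 0, from -0.09 to 0.17. These 6 members have transcripts of 1019 to 2785 bases.

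**Figure D3:**
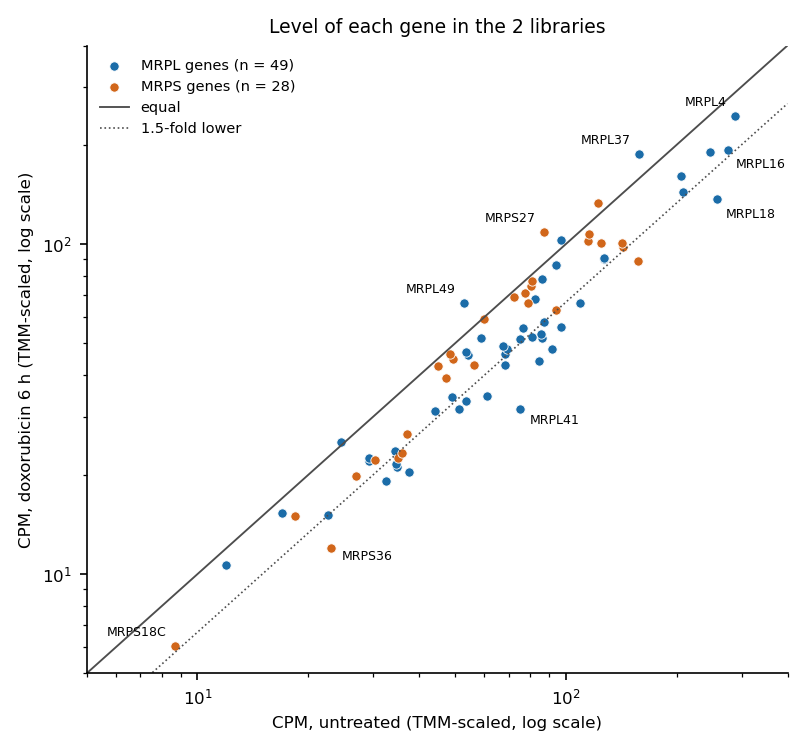
Level of each measured member in CPM on log axes, with doxorubicin for 6 h on the vertical axis and untreated on the horizontal axis. Most points lie between the line of equal level and the dotted line of a 1.5-fold lower level, with MRPL41 furthest below it and MRPL49, MRPS27 and MRPL37 above the line of equal level.

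Levels of the members covered a wide range in both libraries. MRPL4, an early-assembling protein of the large subunit, stood at 244 CPM with doxorubicin and 288 CPM untreated and had a log2 ratio of -0.24 (-0.28 to -0.20). MRPL16, which lies near the transfer RNA sites of the large subunit, had 193 CPM with doxorubicin and 275 CPM untreated, a log2 ratio of -0.51 (-0.55 to -0.47). MRPL3 had 190 CPM with doxorubicin and 246 CPM untreated, a log2 ratio of -0.37 (-0.42 to -0.33). Per kilobase, the median member stood at 38.5 CPM with doxorubicin and 47.0 CPM untreated. By that measure MRPL4, MRPL16, MRPL12 and MRPL18 were the highest 4 members in both libraries, led by MRPL4 with doxorubicin (168 CPM per kilobase) and by MRPL18 untreated. MRPL42, counted over an annotated transcript of 15582 bases, was the lowest measured member, with 3.58 CPM per kilobase with doxorubicin and 4.92 untreated. MRPS24 had 0 counts in both libraries, as had the readthrough gene of URGCP and MRPS24. By counting error alone, a count of 0 allows up to 3 counts, or 0.0584 CPM with doxorubicin and 0.0911 CPM untreated. Among measured members the lowest counts were 311 with doxorubicin and 286 untreated. Whether reads matching MRPS24 and the readthrough gene alike were left uncounted was not tested. The limit therefore covers counted reads only and does not show that MRPS24 RNA was absent.

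Around the polypeptide exit tunnel of the large subunit, 5 of 8 members were lower, against 9.57% of all measured genes. The 8 members have transcripts of 736 to 3176 bases. Among other genes 57.5% were lower at 518 to 1040 bases and 29.4% at 1040 to 1455 bases. The share was 16.5% at 1455 to 1888 bases and 4.16% above that. The lower 5 were MRPL23 (1.74-fold), MRPL22 (1.64-fold), MRPL47 (1.60-fold), MRPL24 (1.59-fold) and MRPL17 (1.54-fold), all of bacterial families. MRPL23 had 56.0 CPM with doxorubicin and 97.3 CPM untreated. Its log2 ratio after the length and GC adjustment was 0.025, the opposite sign, and the other 4 lay between -0.50 and -0.20. MRPL45, which ties the exit site to the inner membrane, stood at 103 CPM with doxorubicin and 96.8 CPM untreated, a log2 ratio of 0.09 (0.03 to 0.16). Of its sampled stretches 16.4% also occur in annotated pseudogenes, so its count is uncertain. MRPL44, which carries a ribonuclease III-like fold, had 788 counts with doxorubicin and 559 untreated, a log2 ratio of -0.15 (-0.30 to 0.01). MRPL39 was at -0.50 (-0.60 to -0.40), an interval that overlaps that of MRPL17 (-0.70 to -0.55). The 3 members at this site that were not called lower, MRPL39, MRPL44 and MRPL45, are those found only in mitochondria. Over all members the shares called lower were close, 29.8% for bacterial families and 26.7% for mitochondria-specific ones.

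In the central protuberance, which faces the small subunit, 4 of 8 members were lower, against 9.57% of all measured genes. They were MRPL18, MRPL40, MRPL48 (1.66-fold) and MRPL55 (1.63-fold). The 8 members have transcripts of 864 to 1888 bases. Of other genes 57.5% were lower at 518 to 1040 bases, 29.4% at 1040 to 1455 and 16.5% at 1455 to 1888. MRPL55 was at a log2 ratio of 0.0069 after the length and GC adjustment, the opposite sign, and MRPL48 at -0.40. MRPL38 had a log2 ratio of -0.53, MRPL52 one of -0.51 and MRPL46 one of 0.04. MRPL58, a peptidyl-tRNA hydrolase built into the ribosome that releases stalled chains, was at -0.46 (-0.55 to -0.38). None of the 3 genes of the stalk that recruits translation factors was called, against 9.57% lower and 7.26% higher among all measured genes. MRPL12, the flexible stalk protein, stood at 161 CPM with doxorubicin and 205 CPM untreated, a log2 ratio of -0.35 (-0.39 to -0.30). MRPL11, at the stalk base, had 90.4 CPM with doxorubicin and 127 CPM untreated, a log2 ratio of -0.49 (-0.55 to -0.43). MRPL10, which anchors the stalk, had 50.3 CPM per kilobase with doxorubicin and 54.5 untreated, a log2 ratio of -0.12 (-0.18 to -0.05). After the length and GC adjustment MRPL12 was at 0.26, MRPL10 at 0.04 and MRPL11 at -0.22, so 2 of the 3 had the opposite sign.

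Elsewhere in the large subunit, 9 further members were lower besides those already placed. Over all MRPL genes 36.7% were lower, against 9.57% of all measured genes. MRPL41, MRPL32, MRPL34 and MRPL54 are given above. MRPL27, a protein close to the peptidyl transferase centre, stood at 19.1 CPM with doxorubicin and 32.4 CPM untreated, 1.70-fold lower (1.55 to 1.85). MRPL14 was 1.65-fold lower, MRPL50 1.61-fold, MRPL57 1.60-fold, and MRPL20 was also called. MRPL20 lay just inside the limit with a log2 ratio of -0.587, and MRPL1, of the L1 stalk where spent transfer RNA leaves, lay just outside it at -0.584. MRPL33, the member with the shortest transcript at 518 bases, was at -0.16 (-0.35 to 0.03), and at 0.71 after the adjustment it was the 1 member called higher.

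Of the genes named MRPS, 2 of 17 measured members of bacterial families (11.8%) and 2 of 11 mitochondria-specific members (18.2%) were lower. These shares stand beside 9.57% of all measured genes. The member counts go by name and include MRPS36, MRPS30 and MRPS18A, whose proteins are placed elsewhere. MRPS15 and MRPS36 are given above, MRPS6 was 1.56-fold lower (1.43 to 1.69) and MRPS33 was 1.54-fold lower (1.42 to 1.67), with 17.8% of the exons of MRPS6 overlapped by SLC5A3 and 13.2% of its sampled stretches found in other genes. MRPS12, a protein of the decoding centre, stood at 69.3 CPM with doxorubicin and 72.2 CPM untreated, a log2 ratio of -0.06 (-0.14 to 0.02). Of its exons 21.5% are overlapped by SARS2, the mitochondrial seryl-tRNA synthetase gene. MRPS34, needed for a stable small subunit, had 101 CPM with doxorubicin and 142 CPM untreated, a log2 ratio of -0.50 (-0.55 to -0.44). MRPS28, a relative of bacterial S1, had 15.0 CPM with doxorubicin and 18.4 CPM untreated, a log2 ratio of -0.30 (-0.45 to -0.14). MRPS7, MRPS10, MRPS25 and MRPS35 also had intervals that spanned 0, with log2 ratios of -0.02, -0.06, -0.06 and -0.07. Exons of MRPS7 and MRPS25 are overlapped by other genes over 12.4% and 18.4%. Differences of that size were not detectable at this depth.

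Some genes named for the small subunit belong elsewhere. MRPS30 and MRPS18A encode proteins that structures place in the large subunit. MRPS30 had 66.4 CPM with doxorubicin and 78.8 CPM untreated, a log2 ratio of -0.25 (-0.32 to -0.17). The 3 relatives of bacterial S18 were unlike in level per kilobase. MRPS18A had 101 CPM per kilobase with doxorubicin and 109 untreated, MRPS18B had 66.0 and 81.5, and MRPS18C had 3.68 and 5.28. MRPS18A had 107 CPM with doxorubicin and 116 CPM untreated, a log2 ratio of -0.11 (-0.17 to -0.05). MRPS18B had 101 CPM with doxorubicin and 125 CPM untreated, a log2 ratio of -0.31 (-0.36 to -0.25). MRPS18C had 6.05 CPM with doxorubicin and 8.68 CPM untreated, a log2 ratio of -0.52 (-0.76 to -0.28). Its interval overlaps that of MRPS18B, so their ratios were not separable at this depth. Of the exons of MRPS18A and MRPS18C, 47.0% and 63.5% are overlapped by RSPH9 and ABRAXAS1, which makes both counts uncertain.

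The split into families shared with bacteria and families found only in mitochondria gave close shares of lower calls. Of 47 measured members of bacterial families 14 were lower (29.8%), with a median log2 ratio of -0.45. Of 30 mitochondria-specific members 8 were lower (26.7%), with a median of -0.47. Both shares stand beside 9.57% of all measured genes. Among genes named MRPL all 30 members of bacterial families had a log2 ratio below 0, and so had 15 of 19 mitochondria-specific members. Of all measured genes 49.3% lay below 0. The median transcripts of these MRPL families were 1122.5 and 1536 bases. After the length and GC adjustment their median log2 ratios were -0.075 and -0.065.

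Several members share a promoter region with a gene on the other strand, and the ratios of such neighbours are given here as a description. A protein-coding gene of the table started within 1000 bases in the opposite direction for 16 of 77 members (20.8%), and for 1122 of 11188 measured genes, in the GENCODE annotation. The 16 members had a median log2 ratio of -0.52 and their neighbours one of -0.19. Of the 16 neighbours 2 were lower (MITD1 and NDUFS6) and 1 higher (EME2), against 9.57% and 7.26% of all measured genes. MRPL18 and TCP1, a subunit of the chaperonin that folds actin and tubulin, start 63 bases apart, with log2 ratios of -0.91 for MRPL18 and 0.07 for TCP1. MRPL27 and EME1, a subunit of a structure-specific endonuclease, start 6 bases apart, with log2 ratios of -0.76 and 0.07. TCP1 and EME1 have transcripts of 2499 and 2354 bases, against 978 for MRPL18 and 716 for MRPL27. The opposite order was seen for MRPL30, at -0.12, whose neighbour MITD1, with a transcript of 939 bases against 2605, was at -0.94 (-1.06 to -0.82). MRPS34 and EME2 start 52 bases apart, and EME2 had 152 counts with doxorubicin and 39 untreated, a log2 ratio of 1.31 (0.81 to 1.87). MRPS11 and MRPL46, which start 34 bases apart, were the 1 such pair made of members, with log2 ratios of -0.26 and 0.04.

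Mitochondrial ribosomal proteins with other names were listed separately. Of 5 such genes 3 were lower and 0 higher, with a median log2 ratio of -0.61. The shares over all measured genes were 9.57% lower and 7.26% higher. AURKAIP1 was 1.66-fold lower (log2 ratio -0.73), CHCHD1 1.54-fold (-0.62) and GADD45GIP1 1.53-fold (-0.61), the last an uncertain count. DAP3, a GTP-binding protein of the small subunit, was at -0.11 (-0.15 to -0.07), and PTCD3, which lies where messenger RNA enters, at 0.12 (0.06 to 0.17). The lower 3 have transcripts of 835 to 1782 bases, and DAP3 and PTCD3 have 2089 and 6734.

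Factors that assemble the mitochondrial ribosome had ratios centred near 0. Of 27 assembly genes 2 were lower (7.41%) and 0 higher, with a median log2 ratio of -0.02. Among all measured genes 9.57% were lower and 7.26% higher. YBEY, an endoribonuclease-like protein, had 416 counts with doxorubicin and 467 untreated, 1.75-fold lower, and MPV17L2 had 827 and 805 counts, 1.52-fold lower. MTG2, a GTPase of large-subunit assembly, had 2837 counts with doxorubicin and 1287 untreated, a log2 ratio of 0.50 (0.40 to 0.60). DHX30, an RNA helicase, was at 0.49 (0.44 to 0.54). AFG3L2, a subunit of the protease that matures MRPL32, was at 0.45 (0.36 to 0.54) with 23.2% of its exons overlapped by TUBB6. The median transcript of this list is 2150 bases, and after the length and GC adjustment its median was -0.011, beside -0.042 for the members.

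Of 17 genes of mitochondrial translation 3 were lower (17.6%) and 0 higher, with a median log2 ratio of -0.08. Over all measured genes 9.57% were lower and 7.26% higher. The list has a median transcript of 2185 bases, and its median log2 ratio was 0.015 after the length and GC adjustment. MTIF3, an initiation factor, was 1.72-fold lower (754 counts with doxorubicin and 833 untreated), C12orf65, a release factor relative, 1.68-fold, and SLIRP, an RNA-binding protein, was at a log2 ratio of -0.65, with 20.3% of its exons overlapped by C14orf178. The highest were MTFMT, which formylates the initiator transfer RNA, at a log2 ratio of 0.28 (0.09 to 0.48), and GFM2, a ribosome recycling factor, at 0.27 (0.20 to 0.35) with 13.1% of its exons overlapped by NSA2. TUFM, the elongation factor that delivers transfer RNA, had 28889 counts with doxorubicin and 18740 untreated, with a log2 ratio of -0.02 (-0.04 to 0.01).

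Other families of short genes were set beside the members. Of 77 measured genes named RPL or RPS, the proteins of the cytosolic ribosome, 50 were lower (64.9%) and 0 higher, with a median log2 ratio of -0.67. Of 77 nuclear subunits of the respiratory chain and ATP synthase 43 were lower (55.8%) and 0 higher, with a median of -0.63. Over all measured genes 9.57% were lower and 7.26% higher. Many cytosolic ribosomal protein genes have processed pseudogenes, which makes their counts uncertain. The median transcripts of these lists are 1004 and 1098 bases. After the length and GC adjustment the medians were -0.23 for the cytosolic ribosomal proteins, -0.15 for the respiratory subunits and -0.042 for the members. The differences between lists were not tested.

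**Figure D4:**
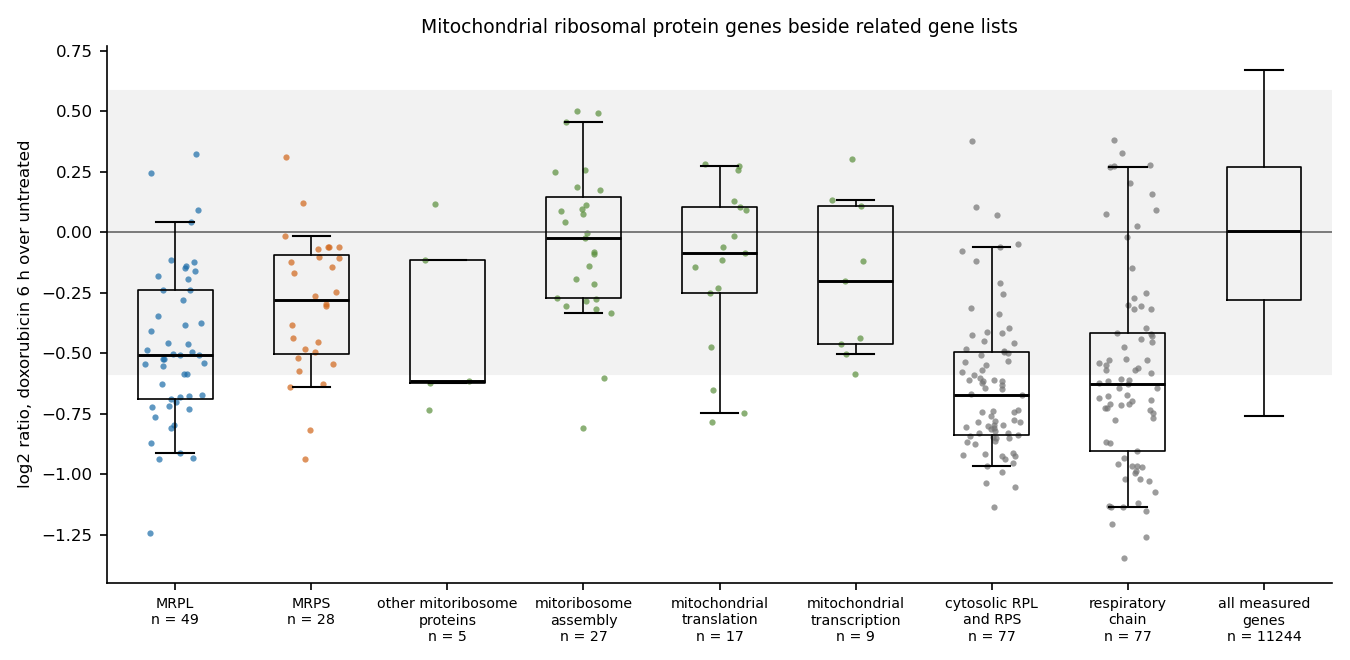
Log2 ratio of doxorubicin over untreated for the MRPL and MRPS genes and for related lists, with points for genes (none drawn for all measured genes), boxes for the quartiles and median, and whiskers from the 5th to the 95th percentile. The MRPL median of -0.51 lies between those of the cytosolic ribosomal proteins (-0.67) and of all measured genes (0.007), and the assembly factors centre near 0.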

How the data were processed

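The authors deposited raw read counts per gene symbol for 2 poly(A)-selected H9 libraries, whole numbers without scaling or length correction. Per the submitters' processing notes HISAT2, featureCounts and hg19 were used. Versions, annotation, strandedness and the handling of multiply aligned reads were not given in the sources used here. This bears on members with overlapping genes or pseudogenes. Because counts are of fragments, they rise with transcript length, so levels are compared between genes only per kilobase.

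The members, lists and classes were chosen with earlier results of these data known. Named members were the 8 lowest and 6 highest ratios, the 4 with the most untreated counts and 14 set by name, and of each related list the 2 lowest and 2 highest ratios. Any other gene named was chosen after its values were seen, to complete a count, a site or a pair. Counts were scaled by TMM with edgeR 4.0.16 in R 4.3.3, and ratios were computed after adding 0.5 to each count. Exact Clopper-Pearson intervals at 95% cover counting error only, since no molecular identifiers are described and PCR copies are not independent. No p-value is given, as 1 library each leaves dispersion unknown. The interval and the size rule were tested on simulated data.

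Lengths, GC content and exon overlaps came from GENCODE release 29 (GRCh38) for 99.5% of measured genes, using the longest RefSeq-matched transcript per gene, or the APPRIS principal one in the added alternative. Overlaps and shared 50-base stretches, sampled every 25 bases, are given, or the count is called uncertain, from 10% upwards where a member or a gene of a related list is named. Alternatives were DESeq2 1.42.0 size factors, total-count and upper-quartile scaling, other count minimums, added counts, fold limits and intervals, leaving out members of uncertain counts, a lowess curve of span 0.3 on transcript length, and regression splines on transcript length, coding length and GC content. A lowess curve on the principal transcript was added after seeing the data.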

Additional observations from a re-analysis of the deposited data

How the results depend on the processing

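The members' counts of lower and higher calls and their medians kept their direction, and stayed within 1.5 times or within the median's binomial interval, under DESeq2 size factors, total-count and upper-quartile scaling, count minimums of 10, 500 or none, an added count of 5, a 99% interval and without the 16 members of uncertain counts. Lower calls then numbered 18 to 23 and higher calls 0. Among the scalings, total counts alone moved ratios of named members by more than counting error, 15 of the 28. MRPS12 then had a log2 ratio of 0.0079, against -0.060 in the main setting. A fold limit of 0.322 on the log2 scale gave 47 lower, against 21.5% of all genes, and a 2-fold limit gave 1, against 1.56%. Each adjustment for length moved these counts and medians, and the ratios of 27 of the 28 named members by more than counting error, MRPS27 being the exception. The lowess curve on transcript length gave 5 lower and 1 higher, a median of -0.062 for the members, -0.062 for MRPL and -0.026 for MRPS. Under that curve 4.51% of all genes were lower and 5.01% higher. Of the 22 genes lower without adjustment 4 remained lower. The splines on transcript length, coding length and GC content gave 0 lower and 1 higher, with medians of -0.042, -0.065 and -0.027. The count of 0 lower stands beside 3.46% of all genes and the 1 higher beside 4.26%. After the splines 46 members lay below 0 (59.7%, against 50.3% of all genes). The curve on principal transcripts gave 5 lower and 1 higher, with medians of -0.090, -0.090 and -0.062, against 4.56% lower and 5.13% higher of all genes. Whether length itself or something that goes with it sets the ratio was not tested. No paired analysis was possible because there is 1 library per condition. Variation between cultures was not measured, so these ratios hold for these 2 libraries.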

Other observations

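Genes that transcribe and process mitochondrial RNA were spread on both sides of 0. Of 9 such genes 1 was lower (11.1%) and 0 were higher, with a median log2 ratio of -0.20. Over all measured genes 9.57% were lower and 7.26% higher. MTERF1, a termination factor, had 824 counts with doxorubicin and 793 untreated, a log2 ratio of -0.59 (-0.73 to -0.44), and TEFM, the elongation factor, had one of -0.50 (-0.65 to -0.36). ELAC2, which trims transfer RNA ends, was at 0.30 (0.26 to 0.34), and TFB2M, which opens promoters for the mitochondrial polymerase, at 0.13 (-0.01 to 0.28). After the length and GC adjustment the median of the list was -0.067.

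Among 8 measured genes of nuclear factors known to act on mitochondrial genes 1 was higher (12.5%) and 0 were lower. The shares over all measured genes were 7.26% higher and 9.57% lower. PPARGC1B, a coactivator of mitochondrial biogenesis, had 1317 counts with doxorubicin and 441 untreated, 1.91-fold higher (1.72 to 2.14), with a transcript of 10568 bases and a log2 ratio of 0.47 after adjustment, short of the size limit. PPARGC1A was at 0 counts in both libraries. MYC was at 0.37 (0.34 to 0.39), ESRRA at -0.32 (-0.40 to -0.24) and YY1 at -0.21 (-0.27 to -0.16).

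MRPL42, chosen after its values were seen, has an annotated transcript of 15582 bases and a coding sequence of 426 bases. Its log2 ratio was -0.46 (-0.54 to -0.38), -0.87 after the lowess adjustment for transcript length and -0.35 after the length and GC adjustment.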
